A study of Mus musculus with 3 samples.

Results

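The comparison covered here is that of Ctnnb1 cKO with WT endothelial cells (ECs) of the mouse retina, across every gene that could be measured. It rests on 2800 gated ECs out of 33528 cell barcodes in the series, 596 ECs of 9951 barcodes in the WT library and 2204 of 9151 in the Ctnnb1 cKO library. The cells were chosen by their own counts of UMIs (unique molecular identifiers, each marking 1 captured transcript). A cell needed at least 1000 UMIs, at most 15% of them from mitochondrial genes, and at least 10 UMIs per 10000 from the endothelial genes Pecam1, Cdh5, Egfl7, Esam, Tie1, Eng, Ecscr and Flt1, with at least 3 of these detected. It also had to hold fewer than 5 UMIs per 10000 of the microglial genes C1qa, Cx3cr1 and Csf1r. Because these genes picked the cells, their levels are no finding. The gated cells held a median of 52.5 marker UMIs per 10000 in WT and 56.7 in Ctnnb1 cKO, which does not check their label.

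There were 3 libraries, 1 per genotype, from retinas of C57BL/6 mice at postnatal day 6. The Ctnnb1 cKO mice carried floxed alleles of Ctnnb1 on both chromosomes and Pdgfb-iCreER, a Cre that is active in ECs after tamoxifen, which was injected daily in the first days of life. WT and mutant mice came from different litters, and no source used here says that they received tamoxifen or carried the Cre. The Tspan12 KO library, from mice lacking Tspan12 in all cells, is set beside the comparison as another level. Each library came from pooled mice and was enriched with beads against CD31, a surface protein of ECs, and CD11b, one of microglia and other myeloid cells. With 1 library per genotype nothing can be tested between genotypes, and genotype and library cannot be told apart. No p-values are therefore given, and every interval is a 95% interval for counting error only.

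In the retina, Norrin binds the receptor Fzd4 with its co-receptor Lrp5 and the helper Tspan12 on ECs, and the signal keeps beta-catenin, the product of Ctnnb1, from being degraded. Beta-catenin then enters the nucleus and acts with TCF/LEF factors on target genes. This pathway is known for driving growth of the retinal vessels and for forming the blood-retina barrier, in which claudin-5 seals the junctions, transporters carry nutrients, and the fenestral protein Plvap is kept low. Beta-catenin also has a second role, tying VE-cadherin at cell junctions to the cytoskeleton.

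The libraries differed in ways that bear on every value below. WT ECs held a median of 16153.5 UMIs, Ctnnb1 cKO ECs 4128.5 and Tspan12 KO ECs 17437, and their summed counts were 18186067, 12663970 and 9478728 UMIs. Their median mitochondrial share was 3.79% in WT but 0.382% in Ctnnb1 cKO (Tspan12 KO 2.28%), and the nuclear RNA Malat1 stood at 4769 CPM (UMIs per 1000000 of the sum) in WT ECs against 16779 in Ctnnb1 cKO ECs. Of the cells with endothelial markers, the microglia limit removed 1.16% in WT and 25.5% in Ctnnb1 cKO. An estimate from rod genes put 8.61% of the WT and 20.9% of the Ctnnb1 cKO EC counts down to free RNA. Sex-linked RNA differed too: 5 sex-linked genes had a median log2 ratio of Ctnnb1 cKO over WT of -1.18 in ECs, 1 above 0 and 4 below. The median was -2.18 in the cells outside the gate, and -2.03 for Tspan12 KO over WT ECs. The WT and Ctnnb1 cKO libraries shared 21 cell barcodes. Near the gate, 9 WT and 10 Ctnnb1 cKO cells lay just inside it and 14 and 16 just outside.

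Cells that failed the gate served as a check on what was particular to ECs. They numbered 8782 in WT, of which 431 were microglia-gated, and 5917 in Ctnnb1 cKO, of which 3876 were. A gene was set aside where it differed at least 2-fold in the same direction in all failing cells of the same libraries. This check has a limit of its own: ECs' transcripts made up an estimated 2.08% of the failing cells' UMIs in WT and 16.7% in Ctnnb1 cKO, and the 8 gate genes themselves had a median log2 ratio of 3.25 there, against 0.07 in gated ECs. A further limit is that the make-up of the failing cells differed, so a pooled ratio can move where its cell classes do not. Ermap had a log2 ratio of 2.30 in all failing cells but 0.07 in microglia-gated and -0.08 in other cells. Six3 had -0.06 in all failing cells but 1.35 and 0.64 in these classes. For many of the leading genes, values in failing cells are therefore given too, mostly apart for microglia-gated and other cells.

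The upstream sequences below show the pair of genes that led the higher side, the interferon-stimulated gene Ifit3, and the amino acid transporter Slc38a5 from the lower side. They are the 250 bases before the RefSeq start site, 5′ to 3′ on the strand of the gene, in GRCm38.p6, from chr11:48992247-48992496 (minus strand), chr11:49064213-49064462 (minus), chr19:34583279-34583528 (plus) and chrX:8271131-8271380 (plus). Capitals mark the TCF/LEF core CTTTGAT and the core of the interferon-stimulated response element, GAAANNGAAA, each searched on both strands with overlaps allowed.
Tgtp1: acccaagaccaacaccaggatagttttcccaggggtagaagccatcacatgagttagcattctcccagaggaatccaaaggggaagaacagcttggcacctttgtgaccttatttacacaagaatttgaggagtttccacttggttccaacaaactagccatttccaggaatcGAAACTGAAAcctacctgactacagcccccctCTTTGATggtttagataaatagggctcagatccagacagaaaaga
Tgtp2: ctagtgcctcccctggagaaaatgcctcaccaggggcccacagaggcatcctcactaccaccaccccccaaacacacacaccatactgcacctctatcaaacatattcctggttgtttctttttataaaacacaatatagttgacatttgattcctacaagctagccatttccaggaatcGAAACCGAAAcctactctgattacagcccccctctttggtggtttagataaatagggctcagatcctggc
Ifit3: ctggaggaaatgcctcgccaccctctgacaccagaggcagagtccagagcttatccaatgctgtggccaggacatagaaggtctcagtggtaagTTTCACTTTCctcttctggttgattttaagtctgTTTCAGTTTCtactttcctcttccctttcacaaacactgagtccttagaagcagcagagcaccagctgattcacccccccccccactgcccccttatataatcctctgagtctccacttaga
Slc38a5: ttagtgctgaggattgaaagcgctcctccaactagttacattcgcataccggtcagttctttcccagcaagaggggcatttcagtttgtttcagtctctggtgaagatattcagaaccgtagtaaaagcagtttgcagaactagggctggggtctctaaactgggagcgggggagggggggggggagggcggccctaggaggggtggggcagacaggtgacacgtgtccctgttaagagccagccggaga
Tgtp1 held the interferon core at base -77 from the start site and the TCF/LEF core at -45, Tgtp2 the interferon core at -70, and Ifit3 the interferon core at -156 and -122. Neither set of letters was in the Slc38a5 window. Among other interferon-induced genes searched, Bst2 and Rsad2 held the interferon core and Irf7 and Cxcl9 did not. Over all 32851 promoters of the table, each 300 bases long, 3.73% held the TCF/LEF core and 3.44% the interferon core. Of the 38 named genes 31 had a promoter there, of which 1 (Tgtp1) held the TCF/LEF core and 3 (Tgtp1, Tgtp2 and Six3os1) the interferon core. Shares over whole gene groups are not given, since only 10210 of the 13271 genes measured had a promoter in the table and a comparison on them is void.

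Across the 13271 genes with at least 50 UMIs over both EC sums, more genes were lower than higher in Ctnnb1 cKO ECs. At least 2-fold higher were 1037 genes (7.81%) and at least 2-fold lower 1559 (11.7%). These are the shares against which the counts within gene lists below are to be read. The failing cells moved alike for 641 of the higher genes (61.8%) and 898 of the lower ones (57.6%). Left were 396 higher genes (2.98% of those measured) and 661 lower genes (4.98%), of which 49 and 115 passed 4-fold. Among those left, 41 higher and 57 lower genes had too few UMIs in failing cells to be judged, and 147 and 158 moved at least 2-fold alike in microglia-gated or other cells taken alone. The genes nearest the threshold were A330032P22Rik and Cwc25 on either side of a log2 ratio of 1 and Mpdu1 and 1700008J07Rik on either side of -1.

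The balance of higher to lower genes depended on the scaling. Of the genes past 2-fold and not set aside, 37.5% were higher when each sum was divided by its own total. With trimmed mean of M values (TMM) scaling, which moved every log2 ratio up by 0.13, the counts were 575 higher and 466 lower (55.2% higher). With mitochondrial, ribosomal protein and haemoglobin genes left out of the totals they were 544 and 487 (52.8%). The median log2 ratio of all genes was -0.13, with the middle 50% between -0.60 and 0.34. A difference in a gene or list is best read against that median.

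**Figure D1:**
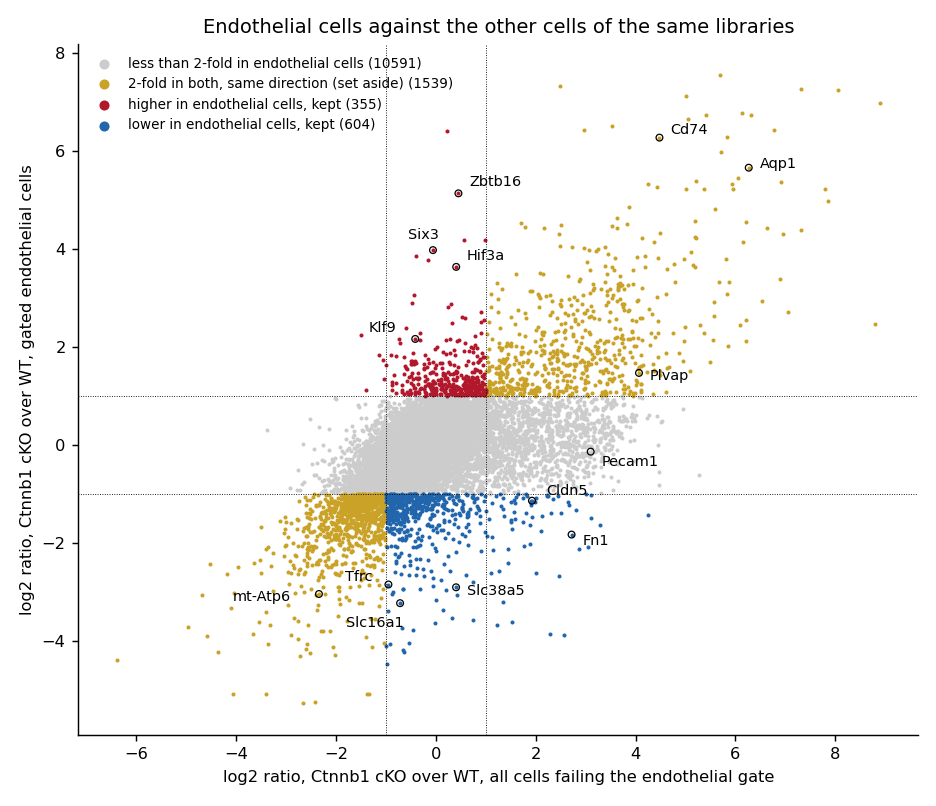
Each point is 1 of the 13089 genes with at least 50 UMIs in both the ECs and the failing cells, with its log2 ratio of Ctnnb1 cKO over WT in all failing cells on the horizontal axis and in gated ECs on the vertical axis; colours separate genes set aside, genes kept past 2-fold and genes within 2-fold. The 641 higher and 898 lower genes that were set aside lie in the upper right and lower left; the 355 higher and 604 lower genes that were judged and kept lie outside those corners.

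The higher genes were led by an interferon-inducible pair. Tgtp2, an interferon-inducible GTPase, had 0 UMIs in WT ECs, set to a floor of 0.165 CPM, and 139 UMIs or 10.98 CPM in Ctnnb1 cKO ECs. It was 66.5-fold higher against that floor, and the counting interval of its log2 ratio began at 5.74. Its near-identical neighbour Tgtp1 went from 2 to 145 UMIs, a log2 ratio of 6.70 (4.82 to 9.76). Reads of such copies can be split arbitrarily between them, so the pair is better read as 1 signal. Both had under 50 UMIs in failing cells and could not be judged, but their counts there lay in the same direction, from 0 UMIs in WT to 39 (Tgtp2) and 37 (Tgtp1) in Ctnnb1 cKO. Cxcl9, a chemokine induced by interferon gamma, likewise went from 1 to 73 UMIs in ECs (log2 ratio 6.71, 4.19 to 12.04) and from 1 to 39 in failing cells, too few to be judged. In Tspan12 KO ECs, Tgtp2 and Cxcl9 were at 0 UMIs.

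Other leading genes on the higher side were of different kinds. Slc10a6, a transporter of sulfated steroids, had 0 UMIs in WT, 131 in Ctnnb1 cKO and 0 in Tspan12 KO ECs. It was 62.7-fold higher in Ctnnb1 cKO against the WT floor (the interval of the log2 ratio began at 5.65). It could not be judged either, and failing cells went from 3 to 38 UMIs, of which 34 were in microglia-gated cells. The muscarinic receptor gene Chrm2 stood at 0.22 CPM in WT, 18.6 in Ctnnb1 cKO and 2.64 in Tspan12 KO, a log2 ratio of 6.40 (5.03 to 8.29). It was 4.22 in microglia-gated cells and -1.62 in other cells. Zbtb16, a zinc finger transcription factor, stood at 0.99, 34.7 and 1.58 CPM, with a log2 ratio of 5.13 (4.45 to 5.90) in ECs, 2.43 in microglia-gated cells and 0.64 in other cells. In each of these genes the Ctnnb1 cKO ECs stood far above both other libraries. Eda2r, a receptor of the TNF receptor family, went from 1 to 56 UMIs (log2 ratio 6.33, 3.79 to 11.66) and could not be judged against failing cells, which held 30 UMIs in WT and 13 in Ctnnb1 cKO.

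Six3, a homeobox transcription factor of the eye field and retinal neurons, had the most UMIs of the 15 leading higher genes. It stood at 20.9 CPM in WT, 329 in Ctnnb1 cKO and 124 in Tspan12 KO ECs (log2 ratio of Ctnnb1 cKO over WT 3.97, 3.82 to 4.13). Its antisense neighbour Six3os1 stood at 15.01, 206 and 170 CPM (log2 ratio 3.78, 3.60 to 3.96), and without a statement of strand in the counting the pair cannot be fully told apart. Retinal neurons in these libraries hold the same RNA: Six3 stood at 286 CPM in the other WT cells and 445 in those of Ctnnb1 cKO, a log2 ratio of 0.64. In microglia-gated cells it went from 57.2 to 146 CPM, a log2 ratio of 1.35. WT ECs thus held less Six3 than WT microglia-gated cells, whereas Ctnnb1 cKO ECs held more than those of their own library. With an estimate of free RNA subtracted from both EC sums, most of the WT count of Six3 was taken away and the log2 ratio was 7.53, a size that rests on the small remainder. Without ECs that held markers of another class the log2 ratio of Six3 was 4.51.

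Of the remaining leading genes, Galnt15, a glycosyltransferase, stood at 0.715, 13.03 and 0.633 CPM in WT, Ctnnb1 cKO and Tspan12 KO ECs (log2 ratio 4.19, 3.37 to 5.13). Hif3a, a hypoxia-inducible factor subunit, stood at 1.15, 14.3 and 1.37 CPM in that order, a log2 ratio of 3.63 (2.97 to 4.36). In both, the Tspan12 KO value lay near WT. Both were also higher in microglia-gated cells, with log2 ratios of 1.96 (3 to 43 UMIs) for Galnt15 and 2.04 for Hif3a, against -0.94 and 0.70 in other cells. Gadd45g, a growth arrest and DNA damage gene, stood at 18.6, 113 and 24.6 CPM (log2 ratio 2.60, 2.43 to 2.78). It also leaned higher in the failing cells, with log2 ratios of 1.08 in microglia-gated and 1.13 in other cells. Myrip, a linker of organelles to myosin, had a log2 ratio of 3.86 (2.92 to 4.96) in ECs and 1.63 in microglia-gated cells. Ptpru, a receptor tyrosine phosphatase, had 2.90 (2.32 to 3.53) in ECs and 0.46 in microglia-gated cells.

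**Figure D2:**
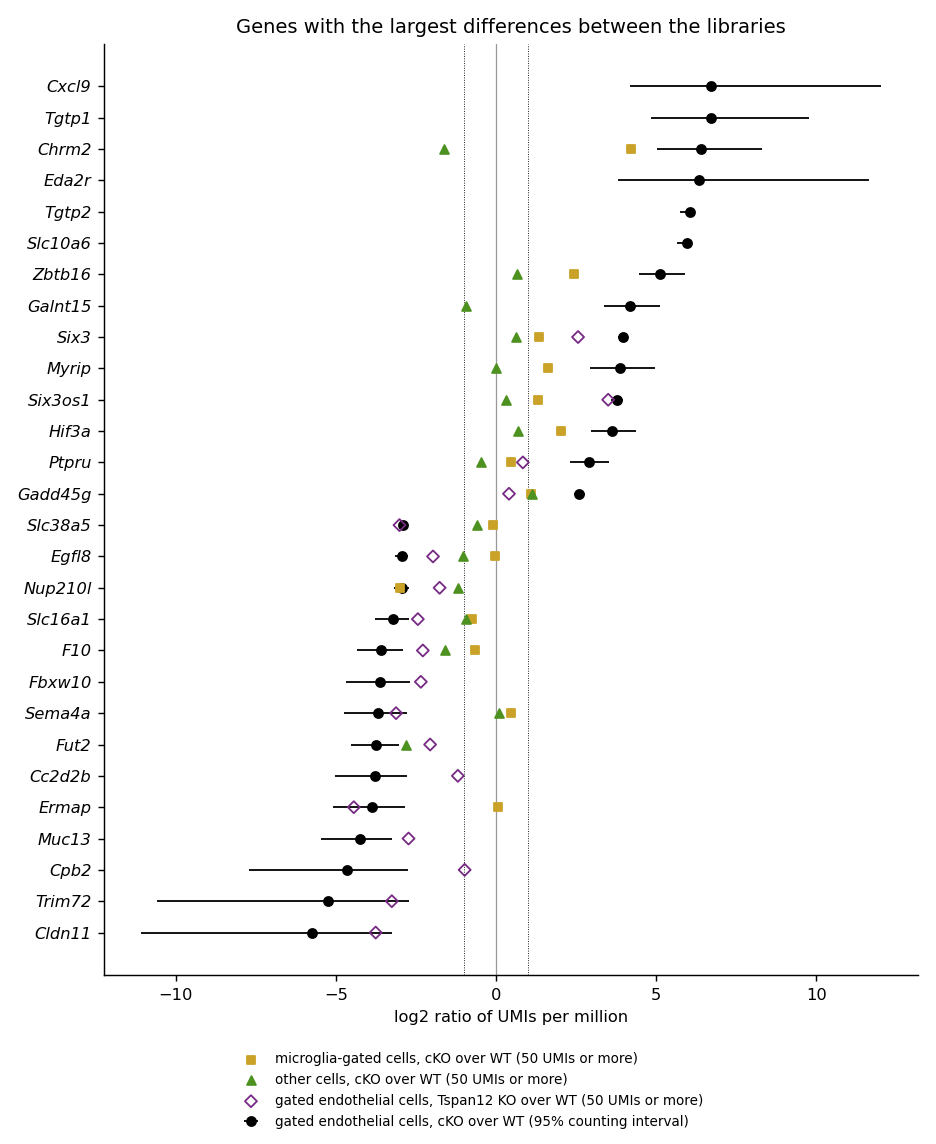
Log2 ratios of 14 leading higher and 14 leading lower genes; black circles are gated ECs of Ctnnb1 cKO over WT with 95% counting intervals, squares microglia-gated cells, triangles other cells and open diamonds gated ECs of Tspan12 KO over WT, the last 3 drawn where at least 50 UMIs were counted; a sum of 0 UMIs was drawn at the floor of 3 counts. Circles and diamonds share the WT library. On the higher side Six3 and Six3os1 have it at 2.56 and 3.50 but Gadd45g at 0.40.

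On the lower side, the leading genes included transporters of the vessel wall. Slc38a5, a glutamine transporter of retinal ECs, stood at 308 CPM in WT, 41.1 in Ctnnb1 cKO and 38.1 in Tspan12 KO ECs (log2 ratio -2.91, -3.04 to -2.78). The failing cells differed little, with -0.09 in microglia-gated and -0.60 in other cells. Slc16a1, the lactate and ketone body carrier MCT1, stood at 25.2, 2.68 and 4.64 CPM (log2 ratio -3.23, -3.78 to -2.73). It leaned lower in failing cells too, with -0.76 in microglia-gated and -0.93 in other cells. In both genes the mutant libraries lay far below WT. The mutants share that WT library, and the genes were chosen for standing high in it, so the Tspan12 KO values are given as levels only.

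Secreted and surface proteins made up much of the rest. Egfl8, an EGF-like protein of vessels, stood at 122, 15.8 and 31.2 CPM in WT, Ctnnb1 cKO and Tspan12 KO ECs (log2 ratio -2.95, -3.17 to -2.74). Coagulation factor F10 stood at 16.99, 1.42 and 3.48 CPM (-3.58, -4.35 to -2.90). The membrane mucin Muc13 stood at 11.9, 0.632 and 1.79 CPM (-4.24, -5.47 to -3.24). The fucosyltransferase Fut2 stood at 18.04, 1.34 and 4.33 CPM (-3.75, -4.55 to -3.05), and Sema4a, a semaphorin, at 10.1, 0.79 and 1.16 CPM (-3.68, -4.76 to -2.77). In other cells Fut2 (53 to 1 UMIs, -2.80), F10 (69 to 3 UMIs, -1.60) and Egfl8 (-1.03) were lower as well. Their log2 ratios in microglia-gated cells were 0.44, -0.67 and -0.03. Muc13 and Sema4a lay within 2-fold in both classes. Ermap, a blood group antigen of red cells, stood at 9.18, 0.632 and 0.422 CPM (-3.86, -5.10 to -2.85). Erythrocyte RNA moved in the same direction in the Ctnnb1 cKO sums, from 1076 to 453 CPM over the haemoglobin and red cell list. For Tspan12 KO over WT ECs, the 5 measured genes of that list had a median log2 ratio of 1.42, against 0.03 over all genes, while Ermap had -4.44. The part of erythrocyte RNA in the Ermap values was not tested.

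Some of the lower genes rest on few counts or move elsewhere too. Cldn11, a claudin, went from 78 to 1 UMIs (log2 ratio -5.76, -11.09 to -3.24), Cpb2, a carboxypeptidase that slows clot lysis, from 72 to 2 (-4.65, -7.72 to -2.74), and Trim72, a membrane repair protein, from 55 to 1. These 3 could not be judged against failing cells, nor could Cc2d2b, with a log2 ratio of -3.78 in ECs. Of Cldn11, microglia-gated cells held 11 UMIs in WT and 1 in Ctnnb1 cKO (-5.34), and other cells 30 and 3 (-0.40). All failing cells held 11 and 4 UMIs of Cpb2, and 5 and 1 of Trim72. Microglia-gated cells held 25 UMIs of Cc2d2b in WT and 5 in Ctnnb1 cKO, a log2 ratio of -4.21, so it was lower there too. Nup210l, a nucleoporin-like gene, stood at 105, 13.5 and 30.8 CPM (-2.95, -3.19 to -2.73), and microglia-gated cells gave a log2 ratio of -2.99 as well. Fbxw10 had a log2 ratio of -3.62 in ECs and 0.99 in microglia-gated cells, on 25 UMIs there.

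The size of many of these differences depended on which cells were compared. When only cells of 2000 to 8000 UMIs were kept (147 WT and 1342 Ctnnb1 cKO ECs), Slc38a5 had a log2 ratio of -3.56, Egfl8 -3.04 and Slc16a1 -4.40. Of the higher genes, Six3 had 3.37, Six3os1 3.18 and Gadd45g 2.88. Nup210l, in contrast, went from -2.95 to -1.05 (-1.76 to -0.27), on 21 and 74 UMIs. The WT sum of the window was 782297 UMIs, and 8 of the leading higher genes had 0 WT UMIs in it, so their ratios there are set by the floor: Zbtb16 at 3.35, Chrm2 at 2.24, Galnt15 at 1.80, Tgtp1 at 1.72, Slc10a6 at 1.64, Tgtp2 at 1.46, Cxcl9 at 0.41 and Eda2r at 0.08. On the lower side F10 gave -1.28 (-2.9996 to 0.81) on 4 WT UMIs. Muc13, Ermap and Cc2d2b had 1 WT UMI each and ratios of -0.86, -0.86 and -0.54, with intervals that spanned 0.

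Several transporters of the blood-retina barrier were lower in Ctnnb1 cKO ECs. Of 22 members measured, 9 were at least 2-fold lower, none of them set aside, and 1 was higher, against 11.7% lower, 4.98% lower and kept, and 7.81% higher over all genes. That none was set aside is no support, since the check is weak for lower EC genes. The median log2 ratio was -0.62 against -0.13 over all genes, and -1.36 in cells of 2000 to 8000 UMIs. Beside Slc16a1 and Slc38a5, Tfrc, the transferrin receptor that brings iron across the barrier, went from 147 to 20.3 CPM (log2 ratio -2.85, -3.04 to -2.67). Slc22a8, an organic anion transporter, went from 31.1 to 5.05 CPM (-2.62, -3.02 to -2.25). The lipoprotein receptor Lrp8 went from 297 to 76.6 CPM (-1.95, -2.05 to -1.85). Mfsd2a, which carries docosahexaenoic acid and limits transcytosis, stood at 170 CPM in WT, 76.0 in Ctnnb1 cKO and 74.4 in Tspan12 KO (-1.16, -1.27 to -1.06). Slc7a1, a cationic amino acid transporter, went from 510 to 224 CPM (-1.19), the iron exporter Slc40a1 had -1.22 and the glutamine transporter Slc38a3 -1.13.

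The list did not move as a whole. The glucose transporter Slc2a1 went from 624 to 896 CPM (log2 ratio 0.52, 0.48 to 0.56), and the efflux pumps Abcb1a and Abcg2 had log2 ratios of 0.59 and 0.06. Slco1a4, an organic anion carrier, was higher, from 3.74 to 38.8 CPM (3.37, 3.01 to 3.76), and stood at 38.3 CPM in Tspan12 KO ECs. It was set aside because failing cells moved alike, with 5.17 in microglia-gated and 5.51 in other cells. For Tspan12 KO over WT ECs, the median of the list was -0.29, against 0.03 over all genes. That median shares the WT library with the Ctnnb1 cKO values.

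Of 13 tight junction genes measured, 3 were at least 2-fold lower and 0 higher, against 11.7% and 7.81% of all genes. The median was -0.57, and -0.89 in cells of 2000 to 8000 UMIs. Cldn5, the main claudin of the barrier, went from 3516 to 1593 CPM and stood at 1881 CPM in Tspan12 KO (log2 ratio -1.14, -1.16 to -1.12). Ocln, occludin, went from 61.6 to 22.03 CPM (-1.48, -1.68 to -1.29), and Lsr, a protein of tricellular junctions, from 126 to 50.6 CPM (-1.32, -1.45 to -1.19). Cgnl1, a junctional adaptor, lay on the other side at 0.40. In microglia-gated cells Cldn5 was higher in Ctnnb1 cKO, from 135 to 341 CPM. Among 10 adherens junction genes 1 was 2-fold lower, Cdh2 (N-cadherin) at -1.26, which was set aside.

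**Figure D3:**
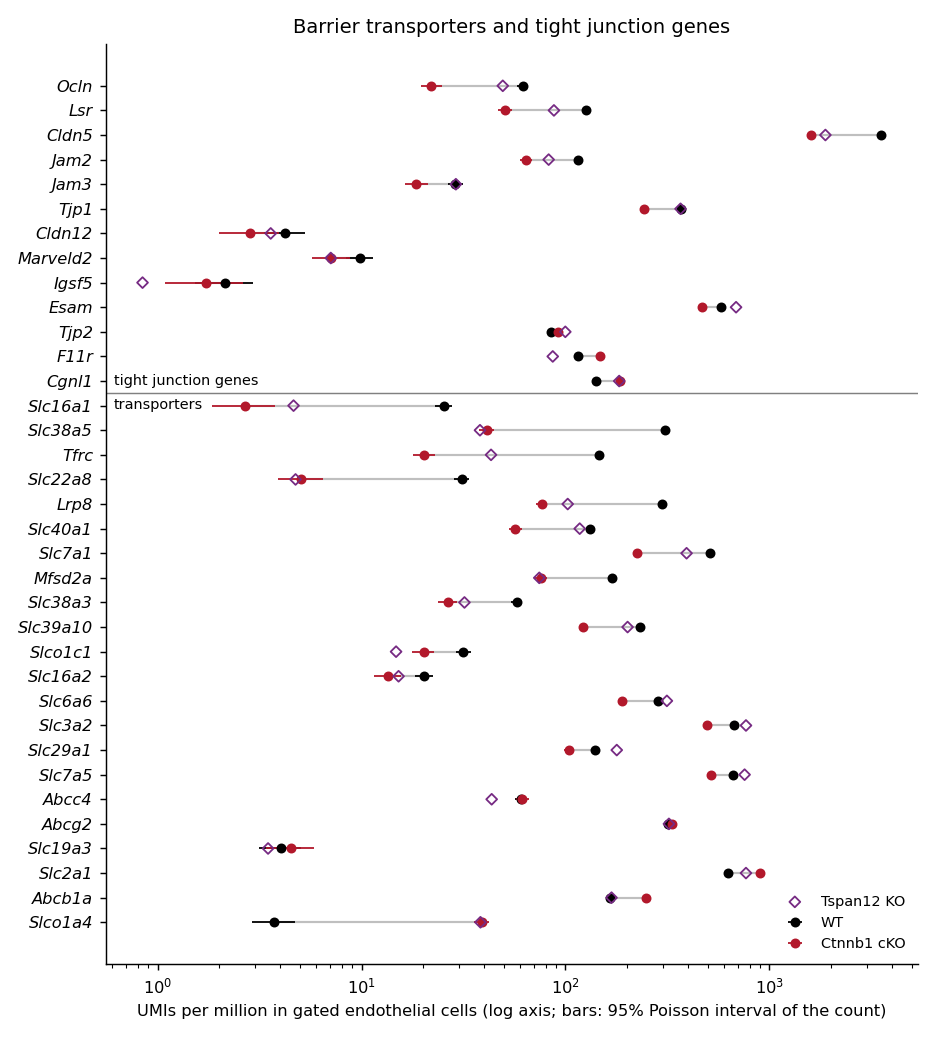
CPM in gated ECs for the transporters and tight junction genes measured, on a log axis, with 95% Poisson intervals of the count; black is WT, red Ctnnb1 cKO and open purple diamonds Tspan12 KO. Slc38a5 sits at 308 CPM in WT and near 40 in both mutants, while Slc2a1 and Abcg2 lie close together in all 3 libraries.

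Known beta-catenin targets did not share 1 direction. Of 16 measured, 3 were at least 2-fold higher and 2 lower, against 7.81% and 11.7% of all genes, and the median log2 ratio was -0.12. Axin2, a feedback inhibitor and common reporter of the pathway, stood at 13.4 CPM in WT, 33.1 in Ctnnb1 cKO and 29.5 in Tspan12 KO ECs (log2 ratio 1.30, 1.07 to 1.54), with 1.04 in microglia-gated and 0.98 in other cells. Sp5, a direct target in many tissues, was higher at 1.85 on 158 UMIs and could not be judged. Dkk2, which encodes a secreted Wnt modulator, was higher at 2.29 but set aside. Lef1, a partner of beta-catenin, went from 251 to 325 CPM (0.38), and Nkd1 had 0.30. On the lower side, Lgr5, an R-spondin receptor, had -2.43, and both lower members were set aside. Apcdd1, a Wnt inhibitor, went from 156 to 98.5 CPM (-0.66) and stood at 186 in Tspan12 KO.

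Ctnnb1 itself stood at 508 CPM in WT, 434 in Ctnnb1 cKO and 564 in Tspan12 KO ECs (log2 ratio -0.23, -0.28 to -0.18). These are reads of the 3′ end of the transcript, which need not lie in the deleted part, so this level does not check the label. Among 15 genes of the Norrin receptor and its transducers, 1 was past 2-fold: Tspan12 went from 93.3 to 39.2 CPM (-1.25, -1.40 to -1.10). Fzd4 and Lrp5 had 0.51 and 0.72. The list's median of 0.13 lay as close to 0 as that of all genes.

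Genes of permeability and caveolae did not share 1 direction. Of 12 measured, 6 had log2 ratios above 0 and 6 below, with a median of 0.12. At least 2-fold higher were 4, all set aside, and 1 was lower, against 7.81% and 11.7% of all genes. Plvap, the diaphragm protein of fenestrae, stood at 107 CPM in WT, 294 in Ctnnb1 cKO and 309 in Tspan12 KO ECs (log2 ratio 1.47, 1.39 to 1.55). It was set aside, with 3.58 in microglia-gated and 2.39 in other cells. After an estimate of EC transcripts was subtracted from the failing cells, a step chosen after seeing the data, their ratio was -1.02 and Plvap was kept. The water channel Aqp1 went from 3.68 to 185 CPM (5.65, 5.30 to 6.03), Cavin2, a caveola coat protein, from 44.8 to 132 CPM (1.56) and Exoc3l2 from 16.8 to 53.0 CPM (1.66), and all 3 were set aside. Vwa1, a matrix protein, was the lower gene of the list, from 578 to 194 CPM (-1.57). By the same subtraction, 100 of the 641 higher and 46 of the 898 lower genes set aside were returned to the kept ones, some only because too few UMIs were left to judge them. Cavin2 and Exoc3l2 were among those returned. So were Dkk2, Slco1a4, Bmx, Gja5, Igfbp3, Col4a1, Col15a1, Ddit4, Col13a1, Eln and Acer2, which are called set aside in other paragraphs.

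Markers of vessel zones moved both ways, and their counts are to be read against 7.81% higher and 11.7% lower over all genes. Which of them were kept depended in part on direction, as given above for the check. Of 16 arterial genes, 5 were at least 2-fold higher, all set aside, and 0 lower. Mgp, matrix Gla protein, went from 32.2 to 286 CPM (log2 ratio 3.15), the kinase gene Bmx from 9.40 to 29.9 CPM (1.67), and the connexin gene Gja5 from 3.79 to 10.5 CPM (1.47). Of 13 venous genes, 3 were lower and kept: Slc38a5, Nr2f2 (the vein transcription factor COUP-TFII) from 90.9 to 42.4 CPM (-1.10), and the apelin receptor Aplnr from 214 to 101 CPM (-1.09). In Tspan12 KO ECs Nr2f2 and Aplnr stood at 90.5 and 254 CPM, within 2-fold of WT. Another 3 venous genes were higher and set aside, among them Lrg1 (4.42). Of 24 tip cell genes, 5 were higher and set aside, among them Igfbp3 (1.70) and Pdgfb (1.18), and Esm1, a tip cell proteoglycan, was lower, from 50.3 to 24.95 CPM (-1.01, -1.20 to -0.82).

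Signaling and regulatory lists differed in how many of their genes passed 2-fold, to be read against 7.81% higher and 11.7% lower over all genes. None of 15 Notch pathway genes did, with Hes1 at 0.56, Dll4 at 0.12 and Jag1 at -0.76. Of 18 BMP and TGF-beta genes, 4 were higher and 0 lower. Smad6, an inhibitor of BMP signaling, from 14.8 to 31.8 CPM (log2 ratio 1.11, 0.88 to 1.33), and the ligand gene Bmp6, from 2.03 to 8.29 CPM (2.03, 1.47 to 2.61), were kept, while the other 2 were set aside. Of 25 endothelial transcription factors, 4 were lower and 0 higher, 1 of them set aside, among them Nr2f2, the fatty acid receptor Ppard from 90.0 to 33.9 CPM (-1.41) and Lmo2 from 437 to 167 CPM (-1.39). Among 16 basement membrane genes, Fn1 (fibronectin) was lower, from 674 to 189 CPM (-1.83, -1.90 to -1.77), while Col4a1 went from 1882 to 3908 CPM (1.05) and Col15a1 had 1.43. These collagen genes and 2 more were higher and set aside. Of 15 hypoxia genes, 2 were higher and 2 lower. Angptl4, a lipase inhibitor, was lower and kept, from 55.9 to 9.16 CPM (-2.61), and Bnip3, a mitophagy receptor, was higher and kept, from 7.59 to 15.95 CPM (1.07, 0.75 to 1.39). Ddit4, an inhibitor of mTORC1 signaling (2.501), and the oxygen sensor Egln1 (-1.498) were set aside. Of 23 immediate early genes, 1 was higher and set aside, and 3 were lower and kept: Egr3 (-2.58), Maff (-1.91) and Nr4a2 (-1.57).

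**Figure D4:**
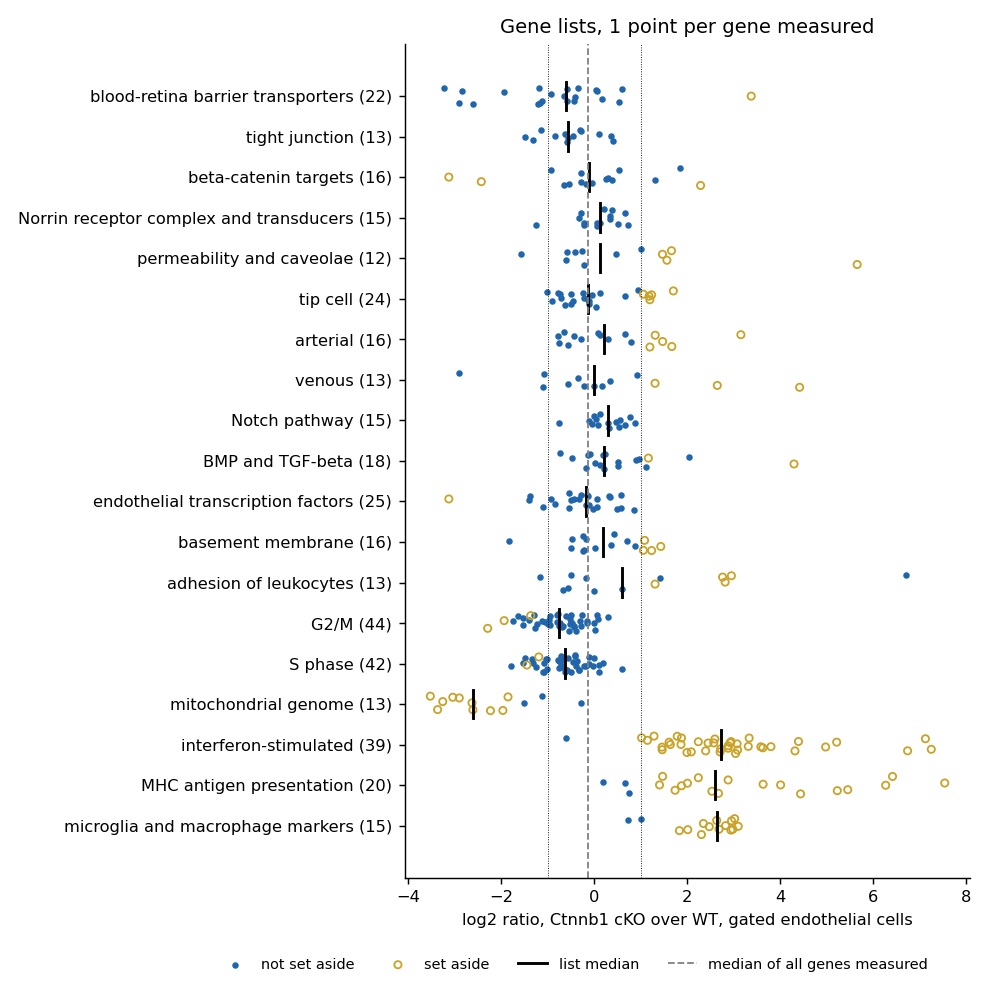
Log2 ratios of Ctnnb1 cKO over WT in gated ECs, 1 point per gene measured, in rows by list; open points were set aside, black bars are list medians and the dashed line is the median of all genes (-0.13). The interferon-stimulated and MHC rows lie far to the right with nearly all points open, and the mitochondrial row lies far to the left.

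Part of the cell cycle genes were lower. Of 44 G2/M genes, 14 were at least 2-fold lower and 0 higher, against 11.7% and 7.81% of all genes, with 3 of the 14 set aside and a median of -0.76. Of 42 S phase genes, 14 were lower and 0 higher, with 2 set aside and a median of -0.64. Birc5, survivin, went from 186 to 64.6 CPM (log2 ratio -1.53, -1.64 to -1.41), and Bub1, a spindle checkpoint kinase, from 28.0 to 8.92 CPM (-1.65, -1.96 to -1.36). Pcna, the replication clamp, went from 119 to 40.9 CPM (-1.54) and Rrm2, a subunit of ribonucleotide reductase, from 53.7 to 15.6 CPM (-1.79). Top2a and Mki67 differed less, at -0.27 and -0.28. Kif11, a spindle motor, stood at 49.3 CPM in WT, 25.5 in Ctnnb1 cKO and 37.0 in Tspan12 KO ECs (-0.95, -1.14 to -0.76), just within 2-fold. Cells with a G2/M signal made up 44.8% of WT and 27.0% of Ctnnb1 cKO ECs, a share that depth can set. Without them the G2/M median was -0.10 and the S phase median 0.024. The same G2/M list defined the cells removed, so the move of its median was partly built in.

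Ferroptosis and autophagy, which the study examined, were covered by a list each. Of 26 ferroptosis and iron genes measured, 2 were at least 2-fold lower, Tfrc and Slc40a1, and 0 higher, with a median of -0.28. Over all genes 11.7% were lower, a larger share than in this list. Gpx4, the lipid peroxide reductase, stood at 399 and 347 CPM (log2 ratio -0.20). Of 18 autophagy and lysosome genes, 1 was higher, against 7.81% of all genes: Ctsd (cathepsin D, 1.31), which was set aside.

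The interferon response was higher throughout the Ctnnb1 cKO library and not in ECs alone. Of 39 interferon-stimulated genes measured, 38 were at least 2-fold higher in ECs, against 7.81% of all genes, and all 38 were set aside. Their median log2 ratio was 2.72 in ECs, 2.15 in microglia-gated cells and 2.87 in other cells. Ifit3, an antiviral protein whose upstream sequence is shown above, went from 7 to 679 UMIs in ECs (7.12, 6.07 to 8.44), and Iigp1, an interferon-inducible GTPase, from 12 to 1270 UMIs (7.25, 6.44 to 8.20). Irf7, a transcription factor of the response, went from 4.56 to 45.9 CPM (3.33) and Isg15 from 18.8 to 159 CPM (3.08). Ifi27 was the exception at -0.61. In Tspan12 KO ECs the median of the list was -0.12.

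Antigen presentation genes followed the same pattern. Of 20 measured, 17 were higher and set aside, against 7.81% higher over all genes. The median was 2.60 in ECs, 0.96 in microglia-gated cells and 2.18 in other cells. H2-K1, a class I heavy chain, went from 52.6 to 651 CPM (3.63), and B2m, its light chain, from 205 to 822 CPM, about 4-fold. Class II genes were higher too: Cd74, the invariant chain, went from 1.92 to 148 CPM (6.27, 5.79 to 6.79) and H2-Aa from 0.60 to 26.5 CPM (5.45). H2-Q6 had 0 UMIs in WT and 388 in Ctnnb1 cKO ECs, but it is near-identical to H2-Q7, and counts of the pair are uncertain. Markers of microglia and macrophages moved with these genes. Of 15 measured, 13 were at least 2-fold higher in Ctnnb1 cKO ECs, their sum went from 183 to 856 CPM, and none was at 0 in both libraries. Their part in the class II values was not tested.

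The mitochondrial genome moved in the opposite direction in every cell class. Of its 13 protein genes, 12 were at least 2-fold lower in ECs, 10 of them set aside, against 11.7% lower over all genes. The medians were -2.61 in ECs, -2.41 in microglia-gated cells and -1.76 in other cells. mt-Atp6 went from 7991 to 968 CPM and mt-Co1 from 3771 to 1739 CPM. By contrast, 38 nuclear genes of the respiratory chain had a median of -0.22, with 1 higher and 1 lower.

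Shares of cells with a UMI gave the same order as the summed counts for the genes below. Because WT ECs held more UMIs per cell, 1000 UMIs were drawn at random from every cell before counting. Slc38a5 was found in 26.3% (22.9 to 30.1%) of WT and 3.45% (2.73 to 4.30%) of Ctnnb1 cKO ECs, against 0.928% and 0.568% of microglia-gated cells. Microglia should lack it, but that class includes cells with endothelial markers. Without thinning, the shares in ECs were 76.0% and 11.6%. Mfsd2a was found in 18.3% and 7.44%. Cldn5 went from 92.1% to 72.2% of ECs, whereas in microglia-gated cells it went from 7.42% to 18.6%. Median depths before thinning were 7129 UMIs in WT and 2971.5 in Ctnnb1 cKO microglia-gated cells.

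Of the higher genes, Six3 was found in 2.52% (1.42 to 4.12%) of WT and 22.9% (21.2 to 24.7%) of Ctnnb1 cKO ECs, with 7.19% and 11.3% of microglia-gated cells and 21.2% and 34.5% of other cells. Six3-positive cells were thus more common among Ctnnb1 cKO ECs than among microglia-gated cells of that library, and less common than among its other cells. Zbtb16 went from 0.168% to 3.49% of ECs and from 0.232% to 1.11% of microglia-gated cells. Cd74 was in 0 of 596 thinned WT ECs (floor 0.503%) and in 11.4% (10.1 to 12.8%) of Ctnnb1 cKO ECs. It was in 1.86% and 5.44% of microglia-gated cells.

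**Figure D5:**
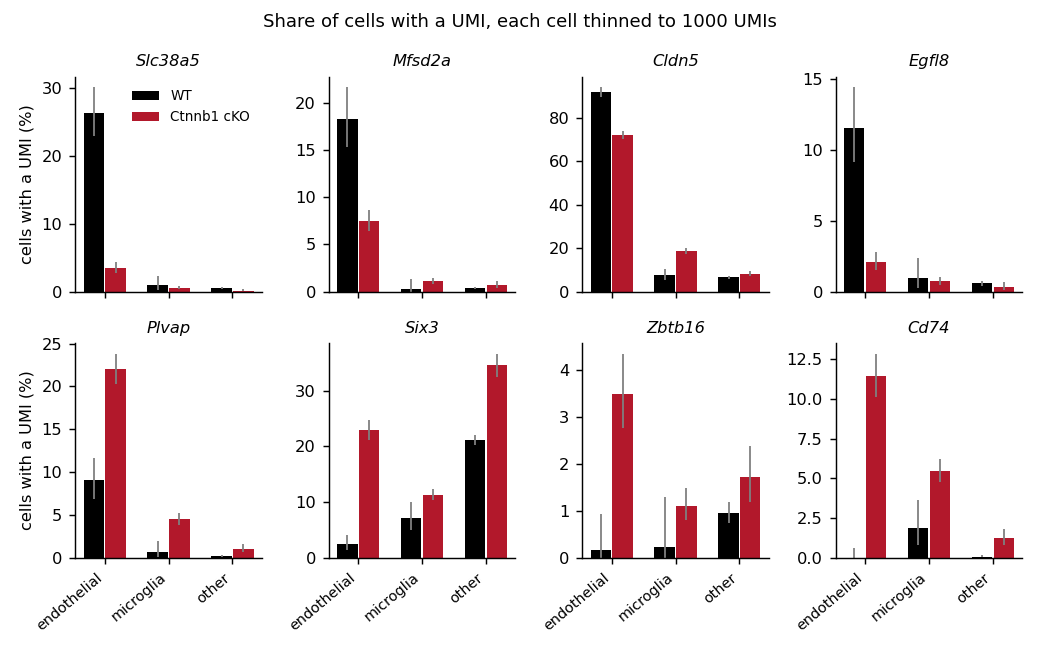
Percent of cells with at least 1 UMI after thinning each cell to 1000 UMIs, for WT and Ctnnb1 cKO, in gated ECs, microglia-gated cells and other cells; bars start at 0 and lines are exact 95% binomial intervals. Slc38a5 goes from 26.3% to 3.45% of ECs with under 1% in microglia-gated cells, and Six3 goes from 2.52% to 22.9% of ECs but is also in 11.3% of Ctnnb1 cKO microglia-gated cells.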

How the data were processed

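The deposited matrices hold raw UMI counts per gene and cell barcode, made by the authors with Cell Ranger (8.0.1 in the matrix headers; the methods name another version). The submitters' processing notes name GRCm39 and the methods another build, so the build was not settled and no coordinates are taken from the files. The 33696 genes are named by symbol as deposited. Promoters came from RefSeq (GRCm38.p6).

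From these counts, UMIs were summed over gated ECs per library, scaled to 1000000 and compared as a log2 ratio of Ctnnb1 cKO over WT, with exact conditional binomial 95% intervals. CPM intervals are exact Poisson and shares exact Clopper-Pearson, all for counting error only. A count of 0 was given a floor of 3 counts per summed library. Genes with at least 50 UMIs over both sums were measured, and at least 50 UMIs in failing cells were needed to judge a gene. Doublets were not called. An alternative without cells holding markers of another class stands in for that step.

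The 15 genes named in each direction had the largest counting-interval bound nearest 0 among genes kept, leaving out predicted, gate and sex-linked genes. Ctnnb1, Apcdd1, Plvap, Axin2, Lef1, Slc38a5, Mfsd2a, Cldn5 and Kif11 and members of 39 gene lists were named as well, except for a few genes that the rule names and that are not reported here. Within a list, these were mainly the members with the largest ratios. Of the list genes, 6 are not in the gene table of the files. The cells, genes and lists were chosen with earlier results of these data known. Malat1 and the genes under the other observations were chosen after their values were seen. Alternatives covered scaling, gate, depth, free RNA, count minimum and the set-aside rule. Software was Python 3.11.15, numpy 2.4.6, pandas 2.3.3, scipy 1.17.1, matplotlib 3.10.9, R 4.3.3 and edgeR 4.0.16 (TMM only). Free RNA was estimated as the share of the whole library's profile that would account for all rod transcripts in ECs. For the subtraction from failing cells, the EC profile was scaled by the 8 gate genes. A cell with at least 10 UMIs per 10000 and 2 detected genes of the G2/M list was called cycling. The scripts were tested on simulated data.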

Additional observations from a re-analysis of the deposited data

Results flagged for a closer look

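Between gated ECs and microglia-gated cells of the same libraries, 9 of the genes named or listed differed at least 2-fold between Ctnnb1 cKO and WT in opposite directions. The difference between the cell classes was not tested, since each has 1 library per genotype. The microglia-gated class also holds cells with endothelial markers, 7 in WT and 756 in Ctnnb1 cKO. The gate genes had a median log2 ratio of 2.18 in it, so a higher EC gene there cannot be credited to microglia. Lower in ECs and higher in microglia-gated cells were Fn1 (log2 ratio -1.83 against 2.11), Nr4a2 (-1.57 against 1.05), Lsr (-1.32 against 1.07), Cldn5 (-1.14 against 1.34), Esm1 (-1.01 against 3.77) and the beta-globin genes Hbb-bt (-1.90 against 1.91) and Hbb-bs (-1.45 against 2.43). Higher in ECs and lower in microglia-gated cells were the microglial genes Trem2 (2.01 against -1.37) and Fcrls (2.30 against -1.09). In absolute terms Trem2 stood at 29.2 CPM in Ctnnb1 cKO ECs and 601 CPM in microglia-gated cells of that library.

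Cells that held endothelial markers but exceeded the microglia limit counted as microglia-gated and entered no comparison of ECs. They were 25.5% of the marker-positive cells in the Ctnnb1 cKO library (756 of 2960) against 1.16% in WT (7 of 603) and 1.72% in Tspan12 KO (7 of 408).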

How the results depend on the processing

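No paired analysis was possible because each genotype is 1 library, and for the same reason no replicate could be left out. The counts of 396 higher and 661 lower genes became 196 and 435 with at least 200 UMIs per gene, 152 and 333 where the whole counting interval lay past 2-fold, and 1037 and 1559 with no gene set aside. Other settings, 3 of them chosen after seeing the data, moved both counts by under 1.5 times, but a count does not fix which genes. Cells of 2000 to 8000 UMIs shared 127 of the 396 higher (32.1%) and 240 of the 661 lower genes (36.3%). Without cells holding markers of another class, 208 of the higher (52.5%) and 469 of the lower genes (70.95%) were shared. For named genes, 245 of the values under alternatives moved by less than their counting interval and 96 by more, and none changed sign. For lists, 311 of 351 medians under alternatives kept their sign and 40 changed it, 21 by under 0.25 and 19 by more, the latter in 12 lists. The rod marker median of 0.39 went to between -1.32 and -0.11 under 5 settings and the lymphatic, lens and pigment median of 0.38 to between -0.92 and -0.48 under 3. In cells of 2000 to 8000 UMIs, sign changes were seen in immediate early genes (-0.18 to 0.41), tip cell genes (-0.14 to 0.26), the Notch pathway (0.30 to -0.05), the insulin-like growth factor axis (0.21 to -0.07) and adherens junctions (0.01 to -0.25). The erythrocyte median went from -1.45 to 2.27 in cells of 2000 to 8000 UMIs and 0.24 as a mean over cells, the mural median from 0.72 to -0.41 without cells holding other markers, and the S phase median to 0.024 without cycling cells. With free RNA subtracted, the microglia gate and macrophage medians both went to -5.71, by the construction of that alternative. A gene at 0 UMIs is not measured and was set to a floor, 0.165 CPM in WT and 0.237 CPM in Ctnnb1 cKO ECs. The cause of the other changes was not tested.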

Other observations

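Some genes outside the fixed lists also differed and were chosen after their values were seen, so they are values only. Klf9 and Fkbp5, both known to respond to glucocorticoids, went from 15.4 to 68.8 CPM (log2 ratio 2.16, 1.96 to 2.36) and from 30.6 to 86.1 CPM (1.49) in ECs, with Tspan12 KO at 26.0 and 33.4 CPM. In microglia-gated and other cells Klf9 had 0.88 and 0.29 and Fkbp5 1.06 and 0.33. Nr1d1, a clock repressor, went from 3.24 to 21.2 CPM (2.71), with 2.06 in microglia-gated and 1.53 in other cells, and Per2 from 3.63 to 9.71 CPM (1.42). Zmat3, a p53 target, went from 9.46 to 36.0 CPM (1.93), with 1.51 and 0.13.

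Other genes were lower. Itm2a, a membrane protein enriched in brain and retinal ECs, went from 821 to 154 CPM (-2.41, -2.48 to -2.34) and stood at 311 CPM in Tspan12 KO. Bsg, basigin, the partner of the lactate carrier Slc16a1, went from 1847 to 433 CPM (-2.09, -2.13 to -2.05) and stood at 866 in Tspan12 KO. Kitl, the ligand of the Kit receptor, went from 426 to 117 CPM (-1.86, -1.94 to -1.78) and stood at 148 in Tspan12 KO. In microglia-gated cells the log2 ratios of these genes were 0.14, -0.45 and 0.16. Among genes set aside, the collagen gene Col13a1 went from 2 to 224 UMIs (7.33, 5.46 to 10.38), the ceramidase gene Acer2 from 24.9 to 206 CPM (3.05) and the elastin gene Eln from 9.79 to 120 CPM (3.62). Acer2 stood at 87.2 CPM in Tspan12 KO.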
